A study of Homo sapiens with 18 samples.

Results

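The apoptosome genes, the caspases it starts and the inhibitor of apoptosis (IAP) genes that hold those caspases back were measured by array in a p53-null lung carcinoma line given WTp53 or another p53 construct. The 8 genes were chosen by function, with earlier results of these data known: APAF1, CYCS, CASP9, CASP6, DIABLO, XIAP, BIRC2 and BIRC3. Of these, 7 were measured, each by 1 probe set, among 18417 genes with an unambiguous symbol. BIRC3 was not analysed here.

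NCI-H1299 cells come from a non-small cell lung carcinoma and make no p53. They were transfected transiently, with Lipofectamine 2000, with the vector pIRES-2EGFP, which makes green fluorescent protein, and the green cells were sorted. Total RNA was taken 40 hours after transfection, so all 18 arrays carry RNA of transfected and sorted cells that lack p53 of their own. The first set of 9 arrays held 3 groups of 3, from experiments 0, 4 and 5, which the series describes as independent transfections: the empty vector, WTp53, and ΔNp53:WTp53, named for the shorter ΔNp53 isoform and WTp53. The second set of 9 arrays, from experiments labelled d, e and f, held the empty vector, WTp53 and tethered WTp53, 3 arrays each, and the series calls these experiments controls. How the ΔNp53:WTp53 and tethered proteins are built is not given in the sources used here. For the tethered arrays the transfection field names ΔNp53:WTp53 while title and description name tethered p53, and the title was followed. All of this is a single cell line under short overexpression. Whether d, e and f were separate transfections is not stated, so p-values of the second set measure only the spread between those arrays, which may be technical.

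In the intrinsic route of apoptosis, mitochondria release cytochrome c, the product of CYCS, which binds APAF1 in the cytosol. APAF1 then assembles into a wheel-shaped complex, the apoptosome, that recruits and activates the initiator CASP9, and CASP9 starts the cascade of effector caspases. CASP6 is an effector caspase that cuts nuclear lamins. IAP proteins oppose this step: XIAP binds and blocks caspases, CASP9 among them, whereas BIRC2 and BIRC3 (cIAP1 and cIAP2) are ubiquitin ligases that act mainly on tumour necrosis factor receptor and NF-kB signalling. DIABLO (Smac) leaves the mitochondria with cytochrome c and displaces IAPs from caspases. p53 is a transcription factor, and APAF1 and CASP6 are known p53 target genes.

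The bases just before the annotated start sites of the genes are shown for the 2 members that rose with p53 and for CASP9, whose second window holds the only exact match to the p53 half-site among the members. The windows are from RefSeq on the build GRCh38.p14, each the 250 bases before a start, written 5′ to 3′ on the gene's strand. Capitals mark places with at most 1 mismatch to the 10-base p53 half-site consensus, which is its own reverse complement, so that both strands are read at once. APAF1 lies on the plus strand (chr12:98645040-98645289), CASP6 on the minus strand (chr4:109703446-109703695) and the second start of CASP9 on the minus strand (chr1:15524791-15525040).
APAF1: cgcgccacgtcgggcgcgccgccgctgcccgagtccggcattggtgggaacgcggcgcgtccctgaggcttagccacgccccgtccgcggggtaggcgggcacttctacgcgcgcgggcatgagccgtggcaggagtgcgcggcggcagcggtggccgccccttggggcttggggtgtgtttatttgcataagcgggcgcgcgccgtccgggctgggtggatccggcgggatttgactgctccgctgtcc
CASP6: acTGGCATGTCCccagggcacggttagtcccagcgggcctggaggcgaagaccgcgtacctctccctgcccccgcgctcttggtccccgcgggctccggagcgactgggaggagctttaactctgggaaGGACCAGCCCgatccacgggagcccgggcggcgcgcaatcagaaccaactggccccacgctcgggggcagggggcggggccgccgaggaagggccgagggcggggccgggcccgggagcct
CASP9, second start: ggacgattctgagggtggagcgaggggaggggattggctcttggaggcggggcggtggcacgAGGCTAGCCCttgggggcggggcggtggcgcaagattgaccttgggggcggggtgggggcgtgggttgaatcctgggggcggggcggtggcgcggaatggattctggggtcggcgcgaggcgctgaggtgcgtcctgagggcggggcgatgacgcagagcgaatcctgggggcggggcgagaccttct
The CASP9 window has its exact match 188 bases before the start. CASP6 has 2 places with 1 mismatch, the first 248 bases before the start, and the nearest places in the APAF1 window have 2 mismatches. Among 15 windows of all 8 genes, 1 held an exact match and 6 a place with at most 1 mismatch. Over all 35116 windows in RefSeq the shares were 5.57% and 57.5%, so places with 1 mismatch are common in windows of this length. A match in letters is not a binding site, and these windows hold only the bases next to each start.

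The deposited values are log2 intensities, normalised by the authors with RMA, and the 2 sets sit on different scales (array medians 4.89 to 4.97 in the first and 7.01 to 7.07 in the second). Levels were therefore compared only within a set, and across sets only as differences of within-set effects. The median gene had an SD across 3 arrays of 0.104 to 0.151 in the first set and of 0.0493 to 0.0693 in the second. The p53 targets CDKN1A and MDM2 check p53 against vector, not which p53 construct an array carried. They were above the empty vector by 4.62 and 3.41 log2 units with WTp53 and by 3.69 and 3.09 with ΔNp53:WTp53. In the second set they were higher by 3.13 and 2.11 with WTp53 and by 3.22 and 2.27 with tethered WTp53. Of the markers for the labelled cell type, KRT8 and KRT18 lay at percentiles 94.7 to 98.1 of all genes, VIM and CDH2 at 87.0 to 99.5, ZEB1 at 61.2 and 78.5, FN1 at 51.4 and 50.1 and KRT19 at 36.9 and 39.4, while EPCAM and CDH1, of epithelial junctions, and the lung markers NKX2-1, NAPSA, SFTPB, SFTPC and SCGB1A1 lay at or below the 44.7th percentile. Among 10 leukocyte markers the defining PTPRC sat at the 3.5th and 1.9th percentiles and CD68 at the 91st and 98th. Of these 10, 3 were called against vector with WTp53 (31.8% of all genes were) and 1 with ΔNp53:WTp53 (36.1%), then 4 with WTp53 (36.8%) and 3 with tethered WTp53 (47.8%) in the second set. Their summed linear level on the arrays of a group ran from 641 to 1016 with vector, 728 to 976 with WTp53 and 601 to 960 with ΔNp53:WTp53. In the second set it ran from 3791 to 3942 with vector, 4742 to 5080 with WTp53 and 4870 to 4975 with tethered WTp53. There CD68, the brightest of the 10, rose by 0.56 with WTp53 and 0.58 with tethered WTp53, while CD14 fell (-0.33 and -0.5). CD79A rose with WTp53 in both sets (0.28 and 0.38), and TYROBP in the first (0.47). ITGAM fell with every p53 group against vector (-0.37 and -0.53, then -0.37 and -0.39), and PTPRC was never called. The part of these leukocyte markers in the results was not tested. Among 10 fibroblast and endothelial markers 0 were called by limma in any within-set comparison, with 0 to 2 at an unadjusted p under 0.05. Their summed linear level ran from 166 to 201 in the first set and from 778 to 846 in the second. In such bulk samples, fewer cells of a type and less RNA per cell cannot be told apart.

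**Figure D1:**
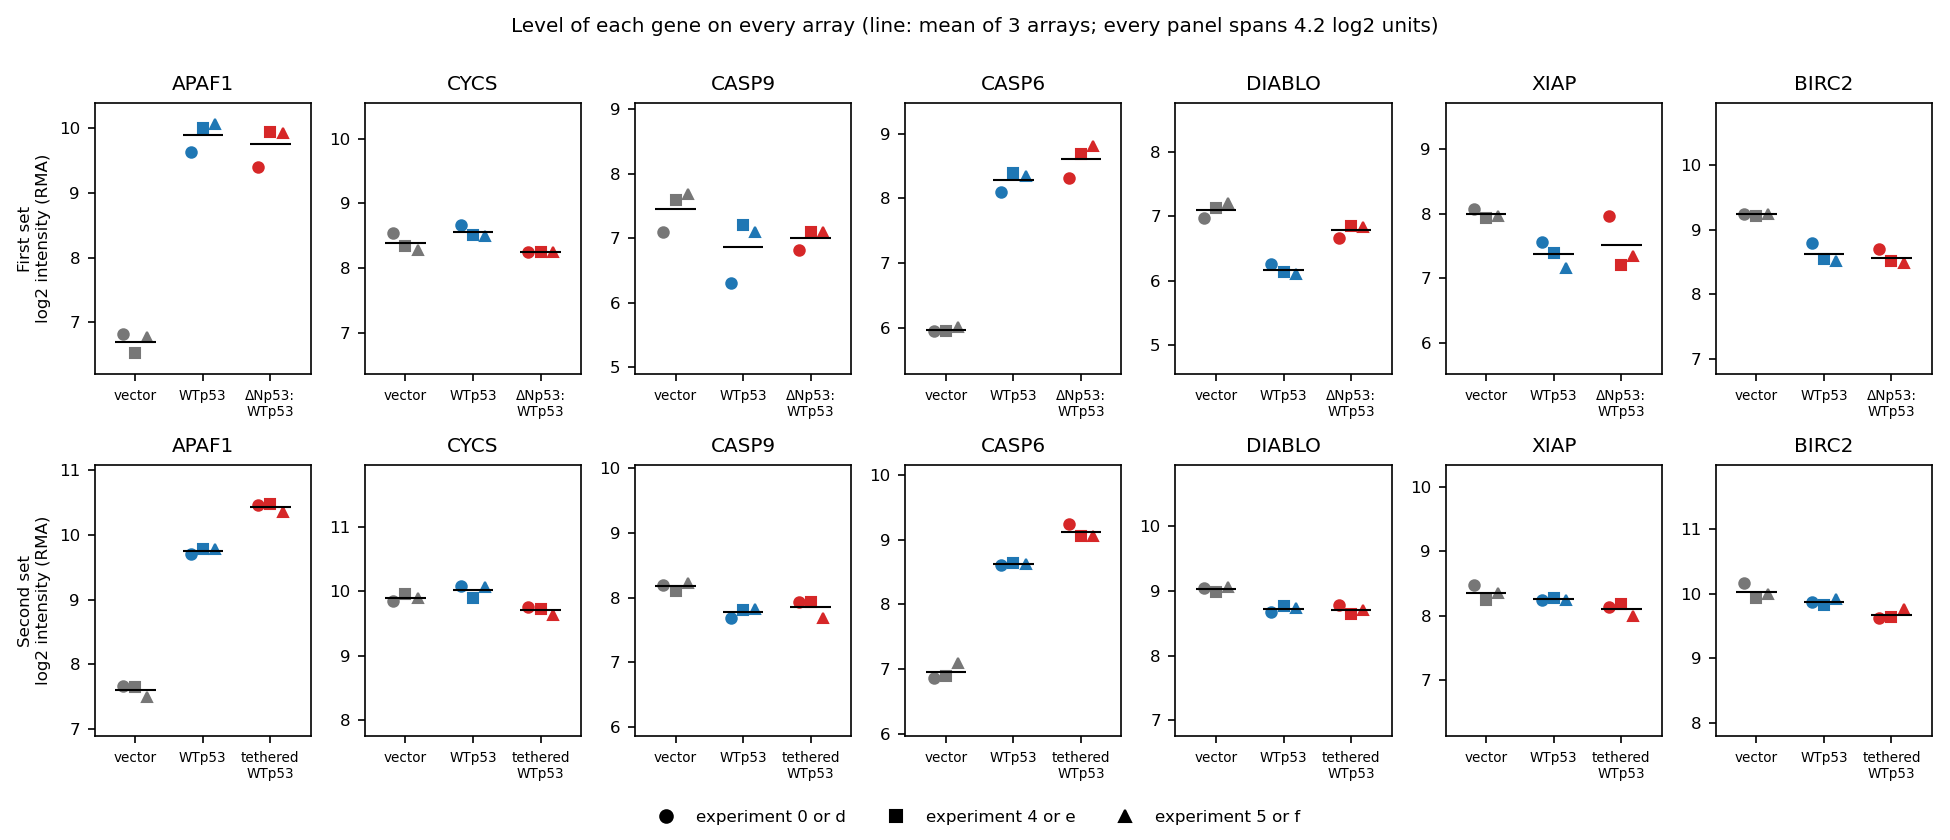
Level of each of the 7 measured genes (log2 RMA intensity, vertical axis) on every array of the first set (top) and second set (bottom), by group; symbols mark experiments, lines are means of 3 arrays, and each panel spans the same number of log2 units. APAF1 and CASP6 stand far above the empty vector in every p53 group, and the group means of the other 5 genes differ by less than 1 log2 unit.

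With WTp53, 2 of the 7 genes rose in both sets, APAF1 and CASP6, while the other measured genes fell or were not called. DIABLO, XIAP and BIRC2 were called lower in the first set, and CASP9 and DIABLO in the second. By limma, with p-values adjusted over all 18417 genes and a threshold of 0.05, the first set had 2 members higher and 3 lower with WTp53 than with vector, where 31.8% of all genes were called (15.2% higher, 16.6% lower). With ΔNp53:WTp53 against the same vector arrays, 2 were higher and 2 lower, at 36.1% of all genes called (15.7% higher, 20.3% lower). These fits did not pair the experiments of the first set. With the experiments paired as a block, 6 members were called with WTp53 and 6 with ΔNp53:WTp53, at 6443 and 7103 of the 18417 genes. The added calls were CASP9 in both and XIAP with ΔNp53:WTp53, all lower. In the second set WTp53 gave 2 higher and 2 lower, at 36.8% of all genes (17.9% and 18.9%). Tethered WTp53 against those vector arrays gave 2 higher and 5 lower, all 7 measured, at 47.8% of all genes (21.6% and 26.2%). The shares of all genes called lower, 16.6% to 26.2%, are the background for the lower members. The median member stood at -0.58 log2 units with WTp53 in the first set and -0.10 in the second, against 0.02 and -0.02 over all genes.

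The other 2 constructs were also set against WTp53 itself. ΔNp53:WTp53 differed from WTp53 in 1 of the 7 genes, DIABLO, where 2.44% of all genes were called (1.56% higher, 0.880% lower). Tethered WTp53 differed in 4, APAF1 and CASP6 higher and CYCS and BIRC2 lower, where 32.4% of all genes were called (14.9% and 17.5%). The comparisons within a set share their vector or WTp53 arrays and are not independent of each other. An exact permutation test of 3 arrays against 3 cannot give a p below 0.1, so the tests rest on limma's spread pooled over the 9 arrays of a set and over genes.

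**Figure D2:**
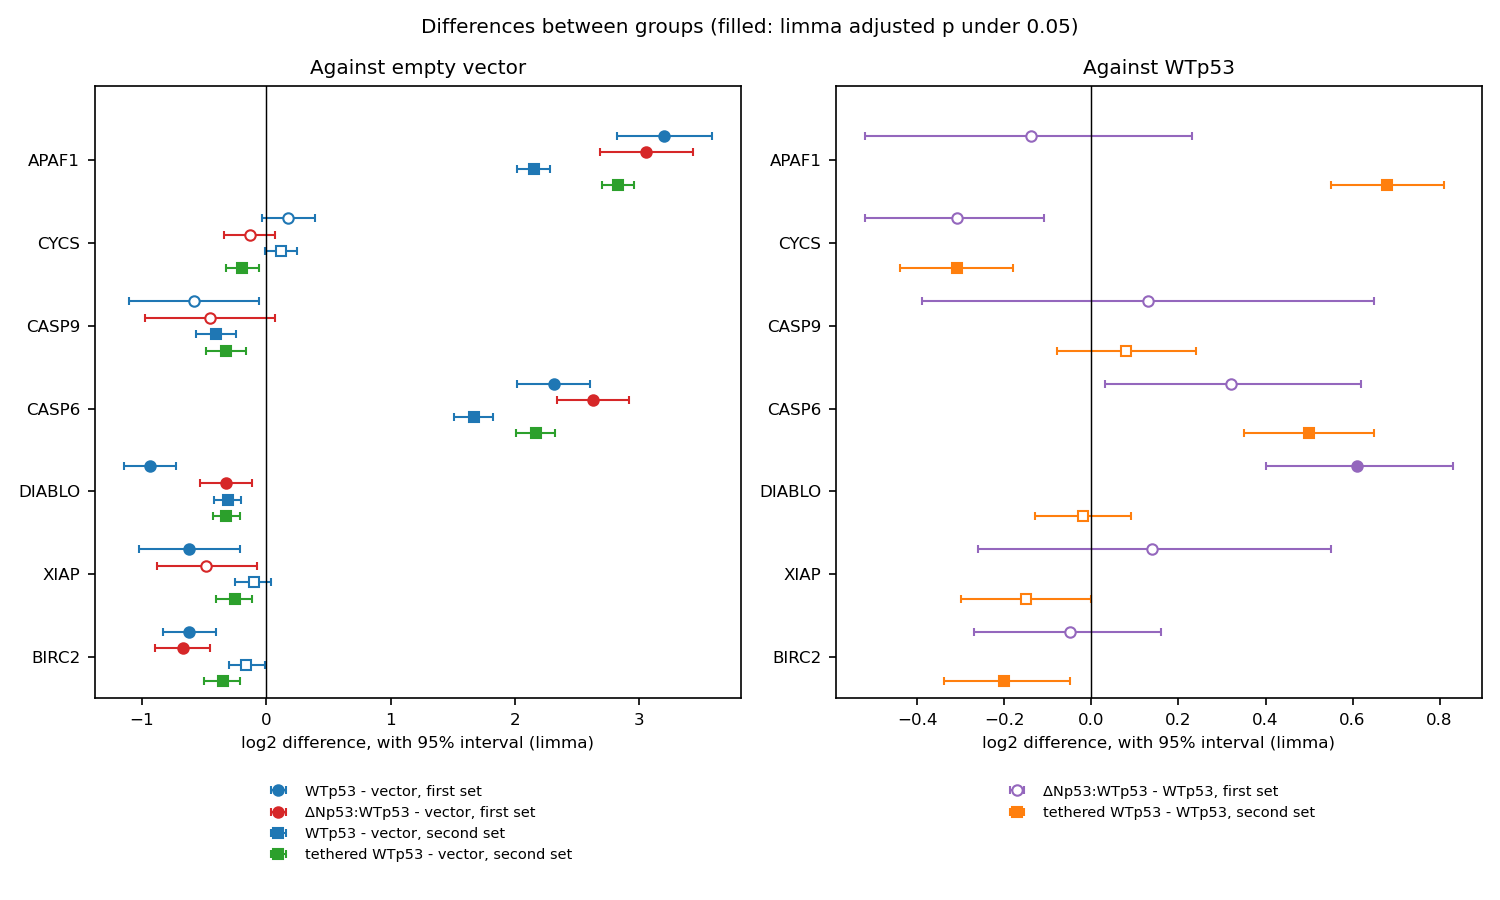
Difference between groups for each gene (log2, horizontal axis) with 95% limma intervals, against the empty vector (left) and against WTp53 (right); circles are the first set, squares the second, filled where the adjusted p is under 0.05. APAF1 and CASP6 lie between 1.67 and 3.20 log2 units above vector in all 4 comparisons, and against WTp53 the called genes are DIABLO in the first set and APAF1, CASP6, CYCS and BIRC2 in the second.

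APAF1, the scaffold of the apoptosome, rose the most of the members. In the first set its log2 level was 6.81, 6.52 and 6.77 with vector in experiments 0, 4 and 5, and 9.63, 10.00 and 10.07 with WTp53. ΔNp53:WTp53 gave 9.40, 9.95 and 9.92. The p53 groups lay wholly above vector and overlapped each other. WTp53 against vector was 3.20 ± 0.169 log2 units (SE), 9.18-fold, with a limma adjusted p of 4.71e-06, and only 0.125% of all genes changed by more. For ΔNp53:WTp53 the difference from vector was 3.05 ± 0.169, 8.31-fold, limma adjusted p = 6.2e-06. Between the 2 p53 forms APAF1 differed by -0.14, with a 95% interval from -0.52 to 0.23 and a limma adjusted p of 0.733.

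The second set had APAF1 at 7.67, 7.65 and 7.49 with vector and at 9.70, 9.78 and 9.78 with WTp53. With tethered WTp53 it reached 10.46, 10.48 and 10.36. The 3 groups did not overlap, and tethered WTp53 was the highest on every array. WTp53 raised APAF1 by 2.15 ± 0.057 log2 units, 4.44-fold (limma adjusted p = 2.03e-09), and tethered WTp53 by 2.83 ± 0.057, 7.11-fold (limma adjusted p = 1.28e-10). Tethered WTp53 exceeded WTp53 by 0.68 ± 0.057, 1.60-fold, limma adjusted p = 2.93e-05. The same-letter differences were 0.76, 0.70 and 0.58.

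CYCS, which encodes cytochrome c, was not called with WTp53 in either set and lay lower with both other constructs than with WTp53 on every array. Its first-set values were 8.54, 8.34 and 8.27 with vector and 8.67, 8.51 and 8.50 with WTp53, and ΔNp53:WTp53 gave 8.24, 8.25 and 8.25. WTp53 against vector was 0.18 ± 0.093 (95% interval -0.03 to 0.39, limma adjusted p = 0.182) and ΔNp53:WTp53 against vector -0.13 ± 0.093 (limma adjusted p = 0.314). ΔNp53:WTp53 against WTp53 was -0.31 ± 0.093 log2 units, with -0.44, -0.26 and -0.25 in experiments 0, 4 and 5. The groups did not overlap, but over all genes the limma adjusted p was 0.113, and with the spread shared by all 18 arrays it was 0.0114.

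The second set gave CYCS values of 9.85, 9.95 and 9.89 with vector and 10.08, 9.90 and 10.06 with WTp53. With tethered WTp53 the values were 9.76, 9.73 and 9.63, below all arrays of the other groups. WTp53 differed from vector by 0.12 ± 0.058 (limma adjusted p = 0.153), which passed the threshold without WTp53 array e (0.17, limma adjusted p = 0.0387). CYCS was lower with tethered WTp53 than with vector (-0.19 ± 0.058, limma adjusted p = 0.0191) and than with WTp53 (-0.31 ± 0.058, 1.24-fold, limma adjusted p = 0.00253). The first of these calls was lost without tethered array f (limma adjusted p = 0.0711), without vector array e (0.0714) and with the spread shared by both sets (0.0666).

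CASP9, the initiator caspase that the apoptosome activates, was lower with WTp53 than with vector in every experiment of both sets. In the first set it read 7.09, 7.59 and 7.68 with vector, 6.31, 7.21 and 7.09 with WTp53, and 6.81, 7.10 and 7.10 with ΔNp53:WTp53. Experiment 0 was the lowest array of each group, so the groups overlapped although each experiment moved the same way. WTp53 against vector was -0.58 ± 0.232 (limma adjusted p = 0.0858) and ΔNp53:WTp53 against vector -0.45 ± 0.232 (limma adjusted p = 0.173). With the experiments paired, as a replicate block, the SE was 0.121 for both and the limma adjusted p values were 0.00489 and 0.0156. Without the arrays of experiment 0 the differences were -0.48 (limma adjusted p = 0.00349) and -0.53 (0.00166). WTp53 against vector also passed without vector array 0 alone (-0.76, limma adjusted p = 0.0410) and with the spread shared by both sets (0.0174).

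The second set put CASP9 at 8.19, 8.10 and 8.23 with vector, at 7.68, 7.81 and 7.83 with WTp53, and at 7.93, 7.94 and 7.69 with tethered WTp53. Vector was above every p53 array, and the 2 p53 groups overlapped. CASP9 fell by 0.40 log2 units with WTp53, 1.32-fold (SE 0.072, limma adjusted p = 0.00113), and by 0.32 with tethered WTp53 (SE 0.072, limma adjusted p = 0.00328). With a spread shared by both sets these adjusted p values were 0.161 and 0.223. Between the p53 forms CASP9 differed by 0.13 in the first set (95% interval -0.39 to 0.65) and by 0.08 in the second (-0.08 to 0.24), neither of them called.

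CASP6, the effector caspase that cleaves nuclear lamins, rose with every form of p53. With vector it read 5.95, 5.95 and 6.01 in the first set, with WTp53 8.10, 8.39 and 8.35, and with ΔNp53:WTp53 8.32, 8.68 and 8.81. The p53 arrays were all above vector by over 2 log2 units, and the ΔNp53:WTp53 value was above the WTp53 value in each experiment, by 0.23, 0.28 and 0.46. WTp53 gave 2.31 ± 0.130 log2 units over vector, 4.96-fold (limma adjusted p = 5.88e-06), which 0.543% of all genes exceeded. ΔNp53:WTp53 gave 2.63 ± 0.130, 6.20-fold (limma adjusted p = 4.13e-06). The gap between those 2 forms, 0.32 ± 0.130, missed the threshold (limma adjusted p = 0.229). It passed without the ΔNp53:WTp53 array of experiment 0 (0.47, limma adjusted p = 0.0215) and without all of experiment 0 (0.37, limma adjusted p = 0.0349).

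CASP6 values in the second set were 6.87, 6.90 and 7.10 with vector and 8.61, 8.64 and 8.62 with WTp53, and tethered WTp53 gave 9.25, 9.06 and 9.06. The groups did not overlap and stood in the same order as for APAF1. The differences from vector were 1.67 ± 0.069 with WTp53, 3.17-fold (limma adjusted p = 3.49e-08), and 2.17 ± 0.069 with tethered WTp53, 4.49-fold (limma adjusted p = 2.15e-09). Tethered WTp53 exceeded WTp53 by 0.50 ± 0.069, 1.41-fold (limma adjusted p = 0.000418).

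DIABLO, the mitochondrial antagonist of IAPs, fell with WTp53 and was the only member called between ΔNp53:WTp53 and WTp53. Its first-set levels were 6.98, 7.12 and 7.20 with vector, 6.26, 6.13 and 6.11 with WTp53, and 6.66, 6.85 and 6.84 with ΔNp53:WTp53. The 3 groups did not overlap, and ΔNp53:WTp53 lay between the other two. WTp53 was 0.93 log2 units below vector (-0.93 ± 0.095, 1.91-fold, limma adjusted p = 0.000105). ΔNp53:WTp53 was below vector by less (-0.32 ± 0.095, 1.25-fold, limma adjusted p = 0.0249) and above WTp53 by 0.61 ± 0.095, 1.53-fold, limma adjusted p = 0.0142. The last difference was 0.40, 0.72 and 0.73 in experiments 0, 4 and 5, and 2.82% of all genes differed by more.

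Both of these ΔNp53:WTp53 calls are near the threshold. Against WTp53 the limma adjusted p ran from 0.0503 to 0.0769 when the ΔNp53:WTp53 or WTp53 array of experiment 4 or 5 was left out, and was 0.0506 with only the 6 arrays compared, while the difference stayed between 0.58 and 0.68. Against vector it was 0.0594 without the ΔNp53:WTp53 array of experiment 0, 0.0758 and 0.0980 without vector array 4 or 5, and 0.0506 with 6 arrays.

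DIABLO stood in the second set at 9.05, 8.98 and 9.06 with vector, at 8.67, 8.77 and 8.73 with WTp53 and at 8.78, 8.64 and 8.70 with tethered WTp53. Vector was above all p53 arrays, and the 2 p53 forms overlapped. The decreases were alike in size, -0.31 ± 0.049 with WTp53 (limma adjusted p = 0.000517) and -0.32 ± 0.049 with tethered WTp53 (limma adjusted p = 0.000216). Between them the difference was -0.02, with a 95% interval from -0.13 to 0.09 (limma adjusted p = 0.823).

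XIAP, the IAP that inhibits caspases directly, was lower with p53 in most experiments, with a large spread in the first set. Vector gave 8.07, 7.94 and 7.97 there, WTp53 7.56, 7.39 and 7.16, and ΔNp53:WTp53 7.97, 7.21 and 7.35. The ΔNp53:WTp53 array of experiment 0 sat at the level of vector, while the other two lay well below it. XIAP was lower with WTp53 than with vector (-0.62 ± 0.182, 1.54-fold, limma adjusted p = 0.0255), a call lost when any 1 array other than the WTp53 array of experiment 0 was left out (5 of 6 arrays, -0.65 to -0.51, limma adjusted p 0.0590 to 0.103). ΔNp53:WTp53 gave -0.48 ± 0.182 (limma adjusted p = 0.0661). The latter passed without its array of experiment 0 (-0.71, limma adjusted p = 0.000934) and without all of experiment 0 (-0.67, 0.00123). It also passed with the experiments paired as a block (limma adjusted p = 0.0183), the spread shared by both sets (0.0119), arrays centred on their medians (0.0387) and only genes above the median level (0.0480).

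The second set placed XIAP at 8.48, 8.25 and 8.35 with vector, at 8.25, 8.27 and 8.25 with WTp53, and at 8.14, 8.19 and 7.99 with tethered WTp53. Tethered WTp53 was below every other array, whereas WTp53 overlapped vector. WTp53 against vector was -0.10 (95% interval -0.25 to 0.04, limma adjusted p = 0.261). XIAP fell by 0.25 log2 units with tethered WTp53 (SE 0.066, 1.19-fold, limma adjusted p = 0.00779, or 0.217 with the spread shared by both sets). Tethered WTp53 against WTp53, -0.15 ± 0.066, was not called (limma adjusted p = 0.106).

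BIRC2, the ubiquitin ligase cIAP1, fell with both p53 forms of the first set. It read 9.24, 9.22 and 9.25 with vector, 8.79, 8.55 and 8.52 with WTp53, and 8.70, 8.52 and 8.48 with ΔNp53:WTp53. Vector was above all p53 arrays, and the p53 groups overlapped. The differences from vector were -0.62 ± 0.098 with WTp53, 1.53-fold (limma adjusted p = 0.00103), and -0.67 ± 0.098 with ΔNp53:WTp53, 1.59-fold (limma adjusted p = 0.000639). Between the 2 forms BIRC2 differed by -0.05, with a 95% interval from -0.27 to 0.16.

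Second-set BIRC2 values were 10.17, 9.93 and 9.99 with vector, 9.88, 9.82 and 9.92 with WTp53, and 9.62, 9.64 and 9.77 with tethered WTp53. The 3 groups did not overlap, in the order vector, WTp53, tethered WTp53. WTp53 against vector was -0.16 ± 0.066 (limma adjusted p = 0.0925), and it passed with arrays centred on their medians (-0.20, limma adjusted p = 0.0351) and without vector array e (-0.21, limma adjusted p = 0.0458). Tethered WTp53 lay below vector by 1.28-fold (-0.35 ± 0.066, limma adjusted p = 0.000966) and below WTp53 by 1.15-fold (-0.20 ± 0.066, limma adjusted p = 0.0434). The last call was lost when any array but tethered f was left out (5 of 6 arrays, -0.22 to -0.17, limma adjusted p 0.0585 to 0.137) and with the spread shared by both sets (limma adjusted p = 0.156).

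WTp53 was tested in both sets, so its effect on each gene could be compared between them. The effect was larger in the first set for 4 of the 7 genes, where 13.2% of all genes were called. APAF1 rose by 1.05 log2 units less in the second set (-1.05 ± 0.169, limma adjusted p = 0.00113) and CASP6 by 0.64 less (-0.64 ± 0.159, limma adjusted p = 0.0143). The decrease of DIABLO was smaller there by 0.63 ± 0.110 (limma adjusted p = 0.00187). For BIRC2, lower in the first set and not called in the second, the effects differed by 0.46 ± 0.137 (limma adjusted p = 0.0345). For XIAP, 0.52 ± 0.188, the limma adjusted p was 0.0790, and 0.0351 with the experiments paired as a block. CYCS and CASP9 differed by -0.06 and 0.18 and were not called.

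Effects of WTp53 over all genes were also larger in the first set, with a median size of 0.20 log2 units against 0.11 and an SD over genes of 0.54 against 0.33. CDKN1A and MDM2 differed in the same direction, by -1.49 and -1.30. The part of this scale in the values of the 4 genes was not tested. The CASP6 call was lost without the WTp53 array of experiment 4 or 5 (limma adjusted p = 0.0676 and 0.0618), and the BIRC2 call without 8 of 12 arrays, all of the first set but WTp53 array 0 and, in the second, vector arrays e and f and WTp53 array f (limma adjusted p up to 0.134).

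The effects of ΔNp53:WTp53 and tethered WTp53 were compared the same way. Against their own vectors, 0 of the 7 genes differed between ΔNp53:WTp53 and tethered WTp53 by limma, with 2 at an unadjusted p under 0.05, where 6.88% of all genes were called. Those were CASP6, 0.47 ± 0.159 (limma adjusted p = 0.0875), and BIRC2, -0.32 ± 0.137 (limma adjusted p = 0.183). CASP6 passed without the ΔNp53:WTp53 array of experiment 0 (0.61, limma adjusted p = 0.00683) or tethered array d (0.53, limma adjusted p = 0.0486), and XIAP passed without the former (-0.46, limma adjusted p = 0.0383).

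Against their own WTp53 arrays, APAF1 and DIABLO differed between the forms, 2 of 7 genes where 2.51% of all genes were called. For APAF1 the effect of ΔNp53:WTp53 was below that of tethered WTp53 by 0.82 log2 units (-0.82 ± 0.169, limma adjusted p = 0.0145). For DIABLO it was above by 0.63 ± 0.110 (limma adjusted p = 0.00580). The APAF1 call was lost without the WTp53 array of experiment 4 (-0.77, limma adjusted p = 0.0759) or 5 (-0.74, limma adjusted p = 0.0810). Each form is set against its own WTp53 arrays here, and the WTp53 effect on both genes itself differed between the sets. CYCS stood at -0.31 log2 units against WTp53 with both constructs, and the difference of those differences was -0.01 (95% interval -0.27 to 0.25).

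**Figure D3:**
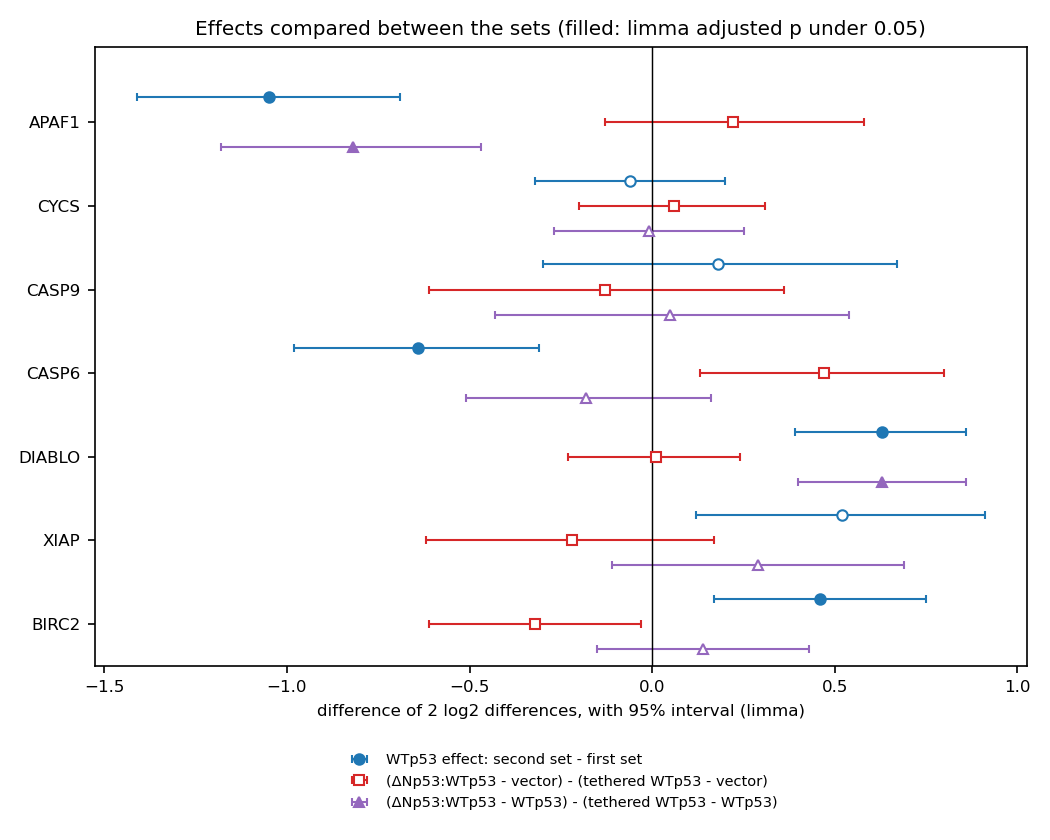
Differences of within-set effects for each gene (difference of 2 log2 differences, horizontal axis) with 95% limma intervals, filled where the adjusted p is under 0.05. The WTp53 effect differs between the sets for APAF1, CASP6, DIABLO and BIRC2, and the effects of ΔNp53:WTp53 and tethered WTp53, each against its own WTp53, differ for APAF1 and DIABLO.

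The genes around the apoptosome were taken from lists chosen with earlier results of these data known, and they are described by counts. Against vector, the shares of all genes called were 31.8% with WTp53 and 36.1% with ΔNp53:WTp53 in the first set, and 36.8% with WTp53 and 47.8% with tethered WTp53 in the second. Among 18 known p53 targets of the death pathway, 17 rose with each of the 4 p53 groups against vector and 0 fell, with medians of 1.46 and 1.61 log2 units in the first set and 1.0 and 1.21 in the second. TP53I3, a quinone oxidoreductase induced by p53, rose by 3.70 with WTp53 and 3.72 with ΔNp53:WTp53, and by 2.45 with WTp53 and 2.74 with tethered WTp53 in the second set. FAS, the death receptor, rose by 1.97 and 2.03, and by 1.54 and 1.88. APAF1 and CASP6 are not on this list, which shares CASP1, BAX, BID, BBC3 and PMAIP1 with lists described next. With tethered WTp53, 12 of the 18 were above WTp53 and SIVA1 was below it (-0.36). In that comparison 14.9% of all genes were called higher and 17.5% lower. With ΔNp53:WTp53, 0 were above WTp53 and TP53AIP1 was below it (-0.74, limma adjusted p = 0.0306), with 5 at an unadjusted p under 0.05. There the shares of all genes called were 1.56% higher and 0.880% lower.

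**Figure D4:**
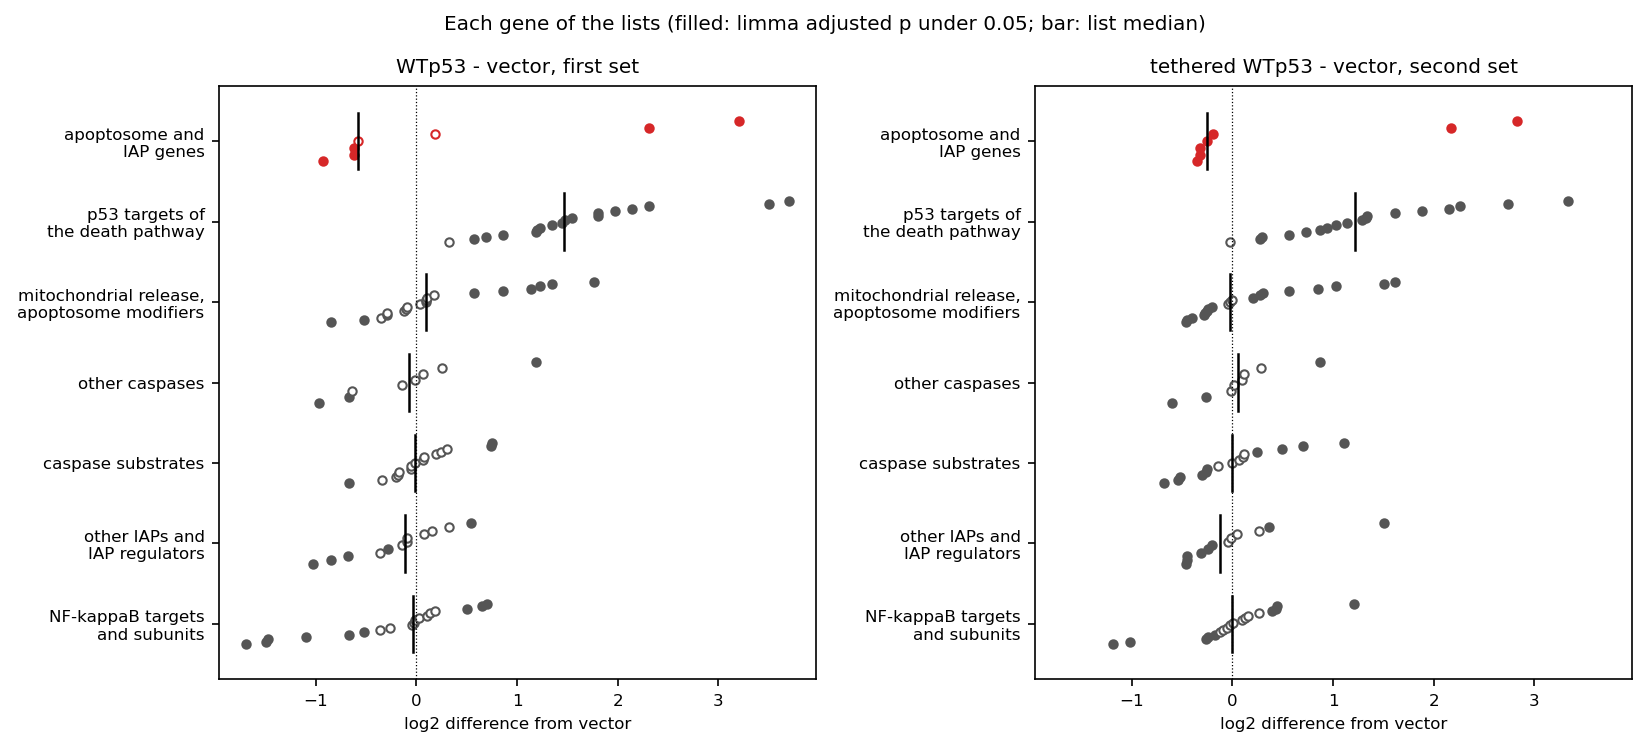
Each gene of the 7 lists as its log2 difference from vector (horizontal axis), with WTp53 in the first set (left) and tethered WTp53 in the second (right); filled points have an adjusted p under 0.05 and bars are list medians. The p53 targets of the death pathway lie almost all above 0, at medians of 1.46 and 1.21, and the other lists straddle 0.

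Of 19 genes for the release of mitochondrial factors or for tuning the apoptosome, 6 rose and 3 fell with WTp53 in the first set, and 6 rose and 5 fell with ΔNp53:WTp53. In the second set 7 rose and 3 fell with WTp53, and 8 rose and 8 fell with tethered WTp53. In the first set 15.2% of all genes were called higher and 16.6% lower with WTp53, and 15.7% and 20.3% with ΔNp53:WTp53. In the second set the shares were 17.9% and 18.9% with WTp53, and 21.6% and 26.2% with tethered WTp53. The 3 that fell with WTp53 in each set are near their shares. The counts that rose are above theirs in each comparison, as are the 8 that fell with tethered WTp53. The pore-forming BAK1 rose by 1.76 ± 0.137 with WTp53 and 1.57 ± 0.137 with ΔNp53:WTp53, and by 1.22 ± 0.073 and 1.51 ± 0.073 with WTp53 and tethered WTp53. BAX, its partner, rose by 0.86 and 0.87, and by 0.45 and 0.56. BID, which activates both, rose by 1.23 and 1.0, and by 0.79 and 1.03. HCCS, the enzyme that attaches heme to cytochrome c, fell with ΔNp53:WTp53 (-0.60 ± 0.087, limma adjusted p = 0.000625), and with tethered WTp53 it was below WTp53 (-0.38 ± 0.062, limma adjusted p = 0.00108). ΔNp53:WTp53 differed from WTp53 in 0 of the 19 genes by limma, with 7 at an unadjusted p under 0.05, where 2.44% of all genes were called. Tethered WTp53 differed from WTp53 in 10, 4 higher and 6 lower, where 32.4% of all genes were called.

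Further, 8 other caspases were measured. With WTp53 in the first set 1 rose and 2 fell, with ΔNp53:WTp53 1 and 1, with WTp53 in the second set 2 and 2, and with tethered WTp53 1 and 2. The shares of all genes called were 31.8%, 36.1%, 36.8% and 47.8% in that order. With WTp53 in the second set 4 of 8 were not called, so that count is above its share. The other counts lie near or below theirs. CASP1, the inflammatory caspase and a p53 target, rose by 1.19 ± 0.193 with WTp53 and 1.65 ± 0.193 with ΔNp53:WTp53, and by 0.52 ± 0.117 and 0.87 ± 0.117 with WTp53 and tethered WTp53. CASP2, the caspase of the PIDDosome, fell in the same comparisons (-0.97 ± 0.293, -0.95 ± 0.293, -0.31 ± 0.044 and -0.60 ± 0.044). CASP8, the initiator of the death receptor route, fell with WTp53 in the first set (-0.67 ± 0.132, limma adjusted p = 0.00342) and with WTp53 and tethered WTp53 in the second (-0.21 and -0.26). Among the other 5, CASP4 rose with WTp53 in the second set (0.50, limma adjusted p = 0.0205), and no other call was made.

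Of 16 genes for caspase substrates and the dismantling of the cell 15 were measured. WTp53 gave 2 higher and 1 lower in the first set and 5 and 5 in the second, ΔNp53:WTp53 gave 3 and 5, and tethered WTp53 gave 4 and 6. The first of these totals is below the 31.8% of all genes called, and 10 of 15 with WTp53 in the second set stand against 36.8%. The totals with ΔNp53:WTp53 and with tethered WTp53 are also above their shares, 36.1% and 47.8%. XKR8, a scramblase that caspases switch on to expose phosphatidylserine, rose by 0.75 ± 0.173 and 1.26 ± 0.173 in the first set and by 0.49 ± 0.066 and 1.11 ± 0.066 in the second, with WTp53 and with the other construct of each set. LMNA, the lamin that CASP6 cuts, rose by 0.74 and 0.79, and by 0.59 and 0.70. PARP1, the DNA repair enzyme cleaved in apoptosis, fell with ΔNp53:WTp53 in the first set (-0.40, limma adjusted p = 0.0300) and with WTp53 and tethered WTp53 in the second (-0.27 and -0.68). It was not called with WTp53 in the first set (-0.05, limma adjusted p = 0.826).

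Of 15 other IAP genes and IAP regulators 12 were measured. With WTp53 in the first set 1 rose and 4 fell, with ΔNp53:WTp53 1 and 5, with WTp53 in the second set 2 and 3, and with tethered WTp53 2 and 6. The shares of all genes called were 31.8%, 36.1%, 36.8% and 47.8% in that order. The 5 of 12 called with WTp53 in each set are not far above their shares. With ΔNp53:WTp53 6 of 12 were not called and with tethered WTp53 4 of 12, so those counts lie further above their shares. BIRC6, a giant IAP with ubiquitin ligase activity, fell with WTp53 (-1.03 ± 0.147) and ΔNp53:WTp53 (-0.53 ± 0.147), and in the second set with WTp53 (-0.62 ± 0.068) and tethered WTp53 (-0.45 ± 0.068). NAIP, an IAP that also senses bacterial proteins and has near-identical copies in the genome, fell in the same order (-0.85, -0.59, -0.23 and -0.45). BIRC5 (survivin), which also serves in cell division, was lower than with WTp53 both with ΔNp53:WTp53 (-0.93 ± 0.133, limma adjusted p = 0.00984) and with tethered WTp53 (-0.42 ± 0.061, limma adjusted p = 0.000525). MAP3K14, the NF-kB-inducing kinase that BIRC2 helps to degrade, rose by 0.54 and 0.95 in the first set and 0.19 and 0.36 in the second.

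Of 18 NF-kB subunits and target genes, 3 rose and 6 fell with WTp53 in the first set and 3 and 6 with ΔNp53:WTp53. In the second set 3 rose and 5 fell with WTp53, and 4 and 5 with tethered WTp53. The 9 of 18 with tethered WTp53 are at the background of 47.8%, and the 9 of 18 with each construct of the first set stand against 31.8% and 36.1%. The count with WTp53 in the second set stands against 36.8%. REL, a subunit, fell in both sets (-1.49 and -1.30, then -1.22 and -1.19). TNFAIP3, a feedback inhibitor of the pathway, fell as well (-1.47 and -1.53, then -0.68 and -1.02). NFKBIE, an inhibitor that holds NF-kB in the cytoplasm, rose by 0.70 and 0.96, and by 0.30 and 1.21. NFKB2, the subunit of the non-canonical branch, was above WTp53 with ΔNp53:WTp53 (0.63 ± 0.122, limma adjusted p = 0.0309). It was the only call of this list in that comparison, where 2.44% of all genes were called.

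The members differed among themselves in how they tracked each other over the 9 arrays of a set, which fall into 3 groups, so that a correlation mostly follows the group means. APAF1 and CASP6 had a Pearson correlation of 0.99 in each set. APAF1 and BIRC2 had -0.98 in the first and -0.83 in the second, and XIAP and BIRC2 0.86 and 0.79. CYCS tracked APAF1 in neither set (0.09 and -0.32). Among all genes, those most like APAF1, by the lower of the correlations in the 2 sets, were LPCAT3 (0.997), CCNA1 (0.996) and SUSD6 (0.996). For CASP6 they were POPDC1 (0.997), ZNF296 (0.996) and DRAM1 (0.994). DIABLO was followed most closely by SPRED1 (0.965), RBMS3 (0.951) and TRIM4 (0.950), and BIRC2 by CNOT9 (0.962), TMEM39A (0.961) and CCDC138 (0.959). The nearest patterns to XIAP were CCDC125 (0.968), CDK1 (0.928) and PPP3R1 (0.917). For CASP9 the values were lower, with TEAD1 (0.909), ZNF404 (0.885) and ZFP82 (0.883), and for CYCS lower still, with SNORD50A (0.893), GOLT1B (0.860) and COX7A2 (0.856).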

How the data were processed

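Total RNA from 18 transfected and sorted NCI-H1299 samples was hybridised to Affymetrix Gene arrays. The deposited values are log2 intensities, which the authors made with RMA in Affymetrix Expression Console, per the submitters' processing notes; versions are not given in the sources used here. The 2 sets of 9 arrays were deposited on separate scales and were fitted apart. Of 33297 probe sets, 19460 had 1 gene symbol in the platform's table, 1754 had several and 12083 were not listed. Of several probe sets for 1 gene (769 genes), the brightest on average stood for it, which left 18417 genes, 18392 of them in the current RefSeq table; the text uses the symbols as they are. The depth of an array is its signal, and 3 arrays a group limit the precision.

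Groups were compared with limma 3.58.1 in R 4.3.3 (lmFit and eBayes, 6 residual degrees of freedom a set), with Benjamini-Hochberg adjustment over all genes and a threshold of 0.05. Differences between sets were fitted over all 18 arrays, weighted by set (weights 0.48 and 2.08, 12 residual degrees of freedom), since spreads differed between sets. The fits were tested on simulated data. Alternatives were a spread shared by all arrays, only the 6 arrays compared, a replicate block, arrays centred on their medians, a filter on low levels, the mean of all probe sets, eBayes with trend, leaving out each array, and, chosen after seeing the data, leaving out experiment 0.

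The numbers of the first set pair its arrays: residuals of same-numbered arrays correlated at 0.11 to 0.57 in all 9 pairs. The 18 pairs with other numbers ran from -0.5 to 0.35, with 6 above 0.1. In the second set same-letter correlations ran from -0.04 to 0.13, with 2 of 9 above 0.1. Those of other letters ran from -0.21 to 0.16, with 1 of 18 above 0.1. Correlations this weak cannot show whether the letters pair arrays there. Named were all members, and CDKN1A and MDM2 as a check of p53 against vector. Also named were from each list at most 4 genes past the threshold with the smallest p per comparison, and for each member the 3 genes of most like pattern. SIVA1, the only gene of its list in its direction, was named after its values were seen. The members and lists were chosen with earlier results of these data known.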

Additional observations from a re-analysis of the deposited data

Results flagged for a closer look

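Effects of the same treatment differed between the sets for 4 genes. With WTp53 against vector, second set minus first, limma gave -1.05 for APAF1 (adjusted p = 0.00113), -0.64 for CASP6 (limma adjusted p = 0.0143), 0.63 for DIABLO (limma adjusted p = 0.00187) and 0.46 for BIRC2 (limma adjusted p = 0.0345). ΔNp53:WTp53 and tethered WTp53, each against its own WTp53 arrays, differed for APAF1 by -0.82 (limma adjusted p = 0.0145) and for DIABLO by 0.63 (limma adjusted p = 0.00580). Each is a test of the difference itself, but all use the WTp53 arrays of both sets and are not independent of each other. Against vector, the effects of ΔNp53:WTp53 and tethered WTp53 did not differ by limma for APAF1 (0.22, limma adjusted p = 0.499) or DIABLO (0.01, limma adjusted p = 0.985). The sets were also normalised separately and differ in spread, which cannot be told apart from their other differences. Groups of 3 arrays are too small for a test of single outlying arrays.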

How the results depend on the processing

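The 7 genes were refitted under 903 combinations of comparison and alternative: 843 kept their side of the threshold (22 of these changed sign while not called either way), 38 lost the call, 22 gained one and 0 called values changed sign. Members called for ΔNp53:WTp53 against WTp53 numbered 1, against 2 with the spread shared by all arrays, 0 with only the 6 arrays compared, 2 without experiment 0 (added after seeing the data) and 0 to 2 with 1 array left out; over all genes the count of 449 became 2693, 96, 2461 and 54 to 2292. For tethered WTp53 against vector, 7 became 4 with the shared spread. That spread also took all-gene counts from 6769 to 3603 for WTp53 against vector in the second set and from 5970 to 1855 for tethered WTp53 against WTp53. With 1 array left out, the members whose WTp53 effect differed between sets numbered 2 to 4 instead of 4 (all genes 1009 to 2760 instead of 2440), those that differed between ΔNp53:WTp53 and tethered WTp53 against vector 0 to 2 instead of 0 (355 to 3893 instead of 1267), and against WTp53 1 to 2 instead of 2 (131 to 980 instead of 463). With the replicate block, members called became 6 instead of 5 for WTp53 against vector in the first set (all genes 6443 instead of 5862). For ΔNp53:WTp53 against vector they became 6 instead of 4 (all genes 7103 instead of 6640). For the WTp53 effect between sets they became 5 instead of 4 (all genes 3174 instead of 2440). The block changed no other call of the members. It raised all-gene counts from 449 to 806, from 1267 to 1959 and from 463 to 705 for ΔNp53:WTp53 against WTp53 and for its difference from tethered WTp53 against vector and against WTp53. The causes of these shifts were not tested.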
